A study of Mus musculus with 18 samples.

Results

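The 10 immediate-early transcription factor genes *Fos*, *Fosb*, *Jun*, *Junb*, *Jund*, *Egr1*, *Egr2*, *Egr3*, *Nr4a1*, and *Ier2* were followed in bulk RNA-Seq of B cells. They were chosen by symbol from the 55491 genes of the deposited count table, and each symbol matched 1 row. The rule used symbols and no measured value, but the genes were chosen with earlier results of these data known. All 10 were tested in every comparison, with at least 78 counts in any library.

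B cells came from female BALB/cJ mice aged 10 to 12 weeks, which all had been sensitized to ovalbumin (OVA) with 20 µg OVA and 1 mg alum i.p. on days 0 and 14. Mice then received PBS (100 µL), soluble OVA (sOVA, 100 µg), or OVA-loaded polymer nanoparticles (OVA NPs, 2.5 mg) i.v. on days 28 and 42, and cells were taken on day 44. B cells of spleen and Peyer's patches were enriched by negative magnetic selection, and 3 libraries were made for each of the 6 tissue and treatment groups. No unsensitized mice were among the samples, so the PBS group is an allergic control. Peyer's patches were digested for 30 minutes at 37°C on a shaker with collagenase IV and DNase I, whereas spleens were pressed through a filter and treated with ACK lysis buffer. Tissue and digestion therefore cannot be told apart.

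Immediate-early genes are transcribed within minutes of a stimulus, without new protein synthesis. In B cells, antigen receptor engagement and MAP kinase signaling are classical inducers, and mechanical, thermal, and enzymatic stress of cell isolation can induce the same genes. FOS and JUN proteins pair to form the AP-1 transcription factor. EGR proteins are zinc-finger activators, NR4A1 (Nur77) is an orphan nuclear receptor used as a reporter of antigen receptor signaling, and IER2 is a small nuclear protein. Many promoters of this class hold CArG boxes, which bind serum response factor, or cAMP response elements (CREs), which bind CREB and ATF proteins.

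The genes lay on 8 chromosomes of GRCm38. *Jun* (chr4:95049034-95052222), *Jund* (chr8:70698949-70700616), and *Ier2* (chr8:84661331-84662852) each had 1 annotated transcript with 1 exon. *Junb* lay at chr8:84974484-84978718, *Fos* at chr12:85473890-85477273, *Fosb* at chr7:19302696-19310051, *Egr2* at chr10:67535475-67542188, and *Egr3* at chr14:70077203-70082614. *Egr1* had 2 transcripts, and *Nr4a1* (chr15:101254269-101274795) had 4 transcripts of up to 8 exons. Reads shared with annotated genes on the other strand (*Junos* at *Jun*, *Prdx2* at *Junb*, *Gm11175* at *Jund*) cannot be told apart where counting ignored strand, which is not given in the sources used here. RefSeq promoter sequences (GRCm38.p6) were at hand for 7 of the 10 genes. The 250 bases before the start site are shown for 4 of them, 3 whose replicates moved together in Peyer's patches and *Jun*, which did not follow them. They are written 5′ to 3′ on the strand of the gene. Capitals mark CArG boxes, the CRE core (TGACG), and EGR sites (GCGNGGGCG), each searched on both strands. Like that of *Egr2*, the *Nr4a1* window lies inside the annotated gene. The *Jund* window, which is not shown, ends at chr8:70697738, before the annotated start of the gene. Like that of *Jun*, the *Jund* window held no marked site. Yet *Jund* moved with the other genes in Peyer's patches (median Pearson r of its pairs 0.82, group means removed). A link between these letters and the behavior of replicates was not tested.
*Fos* (chr12:85473640-85473889, plus strand): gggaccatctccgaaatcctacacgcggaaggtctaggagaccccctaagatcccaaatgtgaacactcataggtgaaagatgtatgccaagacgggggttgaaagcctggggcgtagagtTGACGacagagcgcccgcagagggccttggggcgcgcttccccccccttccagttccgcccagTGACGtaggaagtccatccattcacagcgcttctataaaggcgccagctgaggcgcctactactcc
*Nr4a1* (chr15:101266596-101266845, plus strand): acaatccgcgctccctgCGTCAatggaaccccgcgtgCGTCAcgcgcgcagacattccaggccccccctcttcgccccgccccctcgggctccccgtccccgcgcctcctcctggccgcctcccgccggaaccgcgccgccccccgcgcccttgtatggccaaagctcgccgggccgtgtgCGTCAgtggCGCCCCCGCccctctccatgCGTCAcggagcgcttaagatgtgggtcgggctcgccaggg
*Egr2*, a start site inside the annotated gene (chr10:67537619-67537868, plus strand): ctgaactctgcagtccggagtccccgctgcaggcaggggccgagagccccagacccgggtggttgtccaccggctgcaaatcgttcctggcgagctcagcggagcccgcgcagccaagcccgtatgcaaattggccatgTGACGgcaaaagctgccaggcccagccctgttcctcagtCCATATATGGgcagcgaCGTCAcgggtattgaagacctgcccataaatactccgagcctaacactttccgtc
*Jun* (chr4:95052223-95052472, minus strand): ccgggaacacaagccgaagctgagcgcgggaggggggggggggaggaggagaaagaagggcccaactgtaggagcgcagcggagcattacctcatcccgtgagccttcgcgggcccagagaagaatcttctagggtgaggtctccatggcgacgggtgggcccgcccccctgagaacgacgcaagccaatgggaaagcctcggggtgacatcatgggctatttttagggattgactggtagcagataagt
The CRE core was present in the windows of 5 of the 7 genes with an entry (*Fos*, *Fosb*, *Junb*, *Egr2*, and *Nr4a1*) and in 17.8% of all 32851 promoters. *Nr4a1* held 4 copies, the last of them beginning at position -40 from the start, and *Fos* held 2, at positions -129 and -66. A CArG box was found before 4 of the 5 start sites of *Egr2* and in 1.47% of all promoters. The window shown overlaps those at chr10:67537620-67537869 and chr10:67537680-67537929, and CCATATATGG is the same box in each of them. The window at chr10:67537316-67537565 held another, CCTTTTTTGG. *Fosb* and *Nr4a1* held 1 EGR site each, against 4.70% of promoters. The full CRE (TGACGTCA) and the AP-1 site (TGANTCA), present in 1.55% and 6.75% of promoters, were not among the letters of the windows searched. These matches describe the letters only, and binding was not measured.

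Library totals ran from 14177253 to 30052297 counts. Counting error was largest for *Fosb* in spleen, at 78 to 229 counts per library. Mitochondrial genes took 2.82% to 3.41% of counts in spleen and 4.97% to 9.80% in Peyer's patches. The B cell markers were abundant throughout, with the 8 genes of the list summing to between 7830 and 9445 CPM (counts as a share of the TMM-scaled library total, times a constant common to all libraries) in spleen and between 5856 and 7370 CPM in Peyer's patches. Markers of other cells were present too. The 8 epithelial markers summed to 7.15 to 10.1 CPM in spleen, where *Krt20* and *Fabp2* were at 0 in all 9 libraries, and to 217 to 1149 CPM in Peyer's patches. The T cell marker list was carried by *Lck*, at 62.2 to 82.8 CPM in spleen and 104 to 172 CPM in Peyer's patches, and the other 9 markers summed to 5.82 to 10.3 CPM and 26.1 to 92.5 CPM. In bulk samples, fewer cells of a type and less RNA per cell cannot be told apart.

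The groups allow a contrast between B cells of the 2 tissues, whereas the study's methods compare treatments within each tissue. All 10 genes were higher in Peyer's patches than in spleen when the 3 treatments were averaged, whereas 28.6% of the 17170 genes tested were called higher. Together they took 0.0781% to 0.0933% of all counts in spleen and 0.143% to 0.497% in Peyer's patches. The differences ran from 1.25-fold for *Ier2* to 14.1-fold for *Fosb*. Their median log2 fold change was 2.01, and the median of all genes was -0.01. A gene is called here where edgeR's quasi-likelihood test gives it an adjusted p below 0.05 and the log2 fold change exceeds 0.25 in size.

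**Figure D1:**
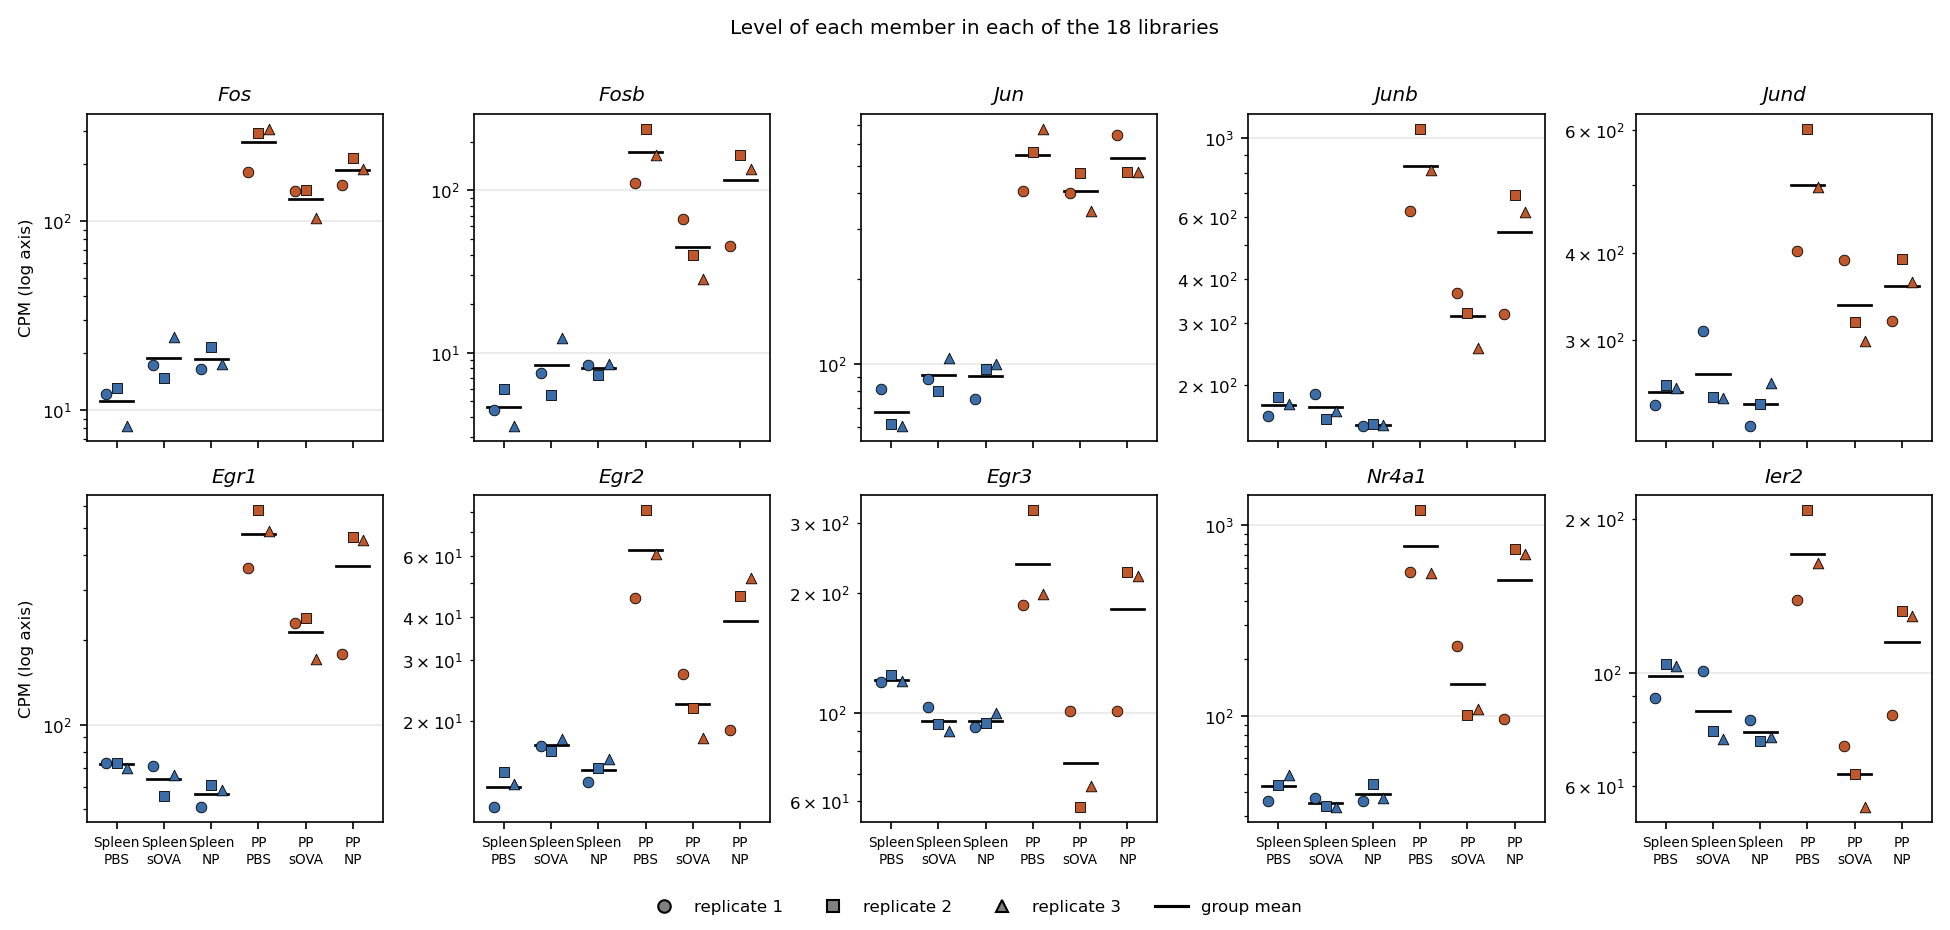
TMM-scaled CPM (log axis, scaled per panel) of each gene in each of the 18 libraries, by tissue and treatment; symbols mark replicates 1 to 3 and lines the group means. *Fos*, *Fosb*, *Jun*, and *Nr4a1* in Peyer's patches (PP, orange) lie above every spleen library (blue), while the sOVA Peyer's patch libraries of *Egr3* and *Ier2* lie at or below the spleen level.

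Among the AP-1 genes, *Fos* and *Fosb* were the least abundant in spleen and differed most between tissues. *Fos* was at 12.2, 13, and 8.24 CPM in the 3 PBS spleen libraries, 17.2, 14.7, and 24.4 CPM with sOVA, and 16.5, 21.5, and 17.5 CPM with OVA NPs. In Peyer's patches it was at 182, 292, and 307 CPM with PBS, 144, 146, and 103 CPM with sOVA, and 155, 216, and 188 CPM with OVA NPs. The lowest Peyer's patch library was 4.23-fold above the highest spleen library. *Fosb*, which encodes a close relative of FOS, was at 3.53 to 12.3 CPM over the 9 spleen libraries and 28.3 to 240 CPM over the 9 Peyer's patch libraries. The log2 fold changes were 3.56 (SE 0.15, edgeR adjusted p = 1.24e-10) for *Fos* and 3.82 (SE 0.31, edgeR adjusted p = 1.66e-07) for *Fosb*.

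*Jun*, the main partner of FOS, was at 60.5 to 105 CPM in spleen and 346 to 677 CPM in Peyer's patches, again with no overlap (log2 fold change 2.57, SE 0.12). *Junb*, which can oppose JUN at some targets, was at 153 to 189 CPM in spleen and 255 to 1065 CPM in Peyer's patches (1.64, SE 0.14). *Jund*, the member of the family with the steadiest expression in resting cells, was at 226 to 309 CPM in spleen and 299 to 603 CPM in Peyer's patches (0.62, SE 0.08). The lowest Peyer's patch value of *Jund*, in sOVA replicate 3, was below the highest spleen value, in sOVA replicate 1. Per kilobase of exon, *Jund* had the highest level of the 10 genes in PBS spleen (151 ± 5.54 CPM per kb, SD, n = 3) and *Fosb* the lowest (0.742 ± 0.196). In PBS Peyer's patches *Junb* was highest on that scale (362 ± 96.6), followed by *Jund* (300 ± 59.9) and *Nr4a1* (222 ± 105), and these 3 levels lay within their spreads.

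*Nr4a1* was at 33.4 to 49.1 CPM over the 9 spleen libraries. In Peyer's patches it was at 567, 1207, and 565 CPM with PBS, at 233, 102, and 109 CPM with sOVA, and at 96.5, 754, and 709 CPM with OVA NPs. All 9 Peyer's patch libraries were above all 9 spleen libraries, although 1 OVA NP library stood at the level of the sOVA group. The log2 fold change was 3.34 (SE 0.37, edgeR adjusted p = 3.71e-06).

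The EGR genes differed among themselves. *Egr1* (chr18:34859823-34864984, GRCm38) was at 50.9 to 73.1 CPM in spleen and 171 to 580 CPM in Peyer's patches (log2 fold change 2.38, SE 0.18). *Egr2* was at 11.3 to 17.7 CPM in spleen and 17.9 to 81.3 CPM in Peyer's patches (1.36, SE 0.18), and the lowest Peyer's patch library lay only 1.01-fold above the highest spleen library. *Egr3* overlapped between tissues, at 89.9 to 124 CPM in spleen and 57.9 to 323 CPM in Peyer's patches (0.52, SE 0.17, edgeR adjusted p = 0.0153). *Ier2* overlapped as well, at 73.5 to 104 CPM in spleen and 54.7 to 208 CPM in Peyer's patches (0.32, SE 0.11, edgeR adjusted p = 0.0148). In all, 7 of the 10 genes had 9 Peyer's patch libraries above 9 spleen libraries, against 12.7% of all genes.

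The tissue difference was then fitted within each treatment. In PBS-treated mice all 10 genes were called higher in Peyer's patches (background 25.5% higher), with log2 fold changes from 0.80 for *Ier2* to 5.21 for *Fosb* and a median of 2.51. In OVA NP–treated mice 9 were called (background 22% higher), and *Egr3*, at 0.98 (SE 0.32), missed the threshold with an edgeR adjusted p of 0.0612. In sOVA-treated mice 8 were called higher (background 26.7%). There *Ier2* was lower in Peyer's patches (background 24.3% lower), with a log2 fold change of -0.41 (SE 0.14, edgeR adjusted p = 0.0374), and *Egr3* was at -0.35 (SE 0.21, edgeR adjusted p = 0.212). The direction for *Ier2* thus turned with the treatment of the mice.

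**Figure D2:**
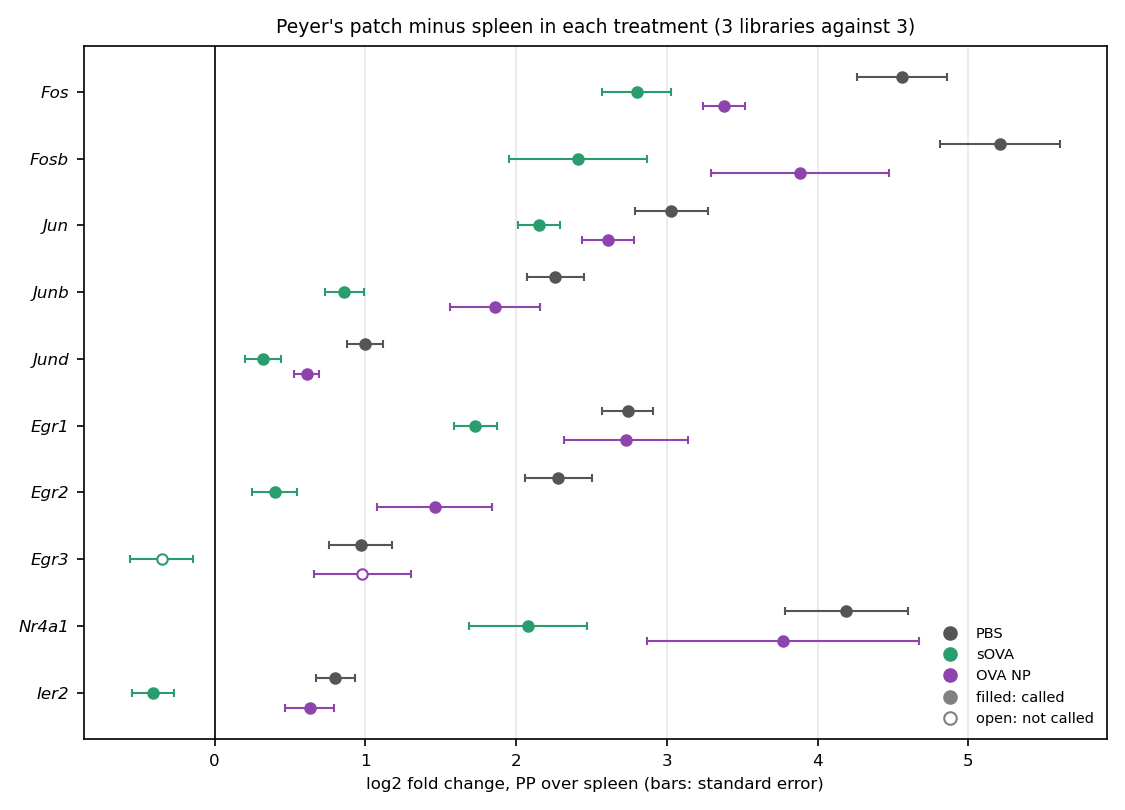
Log2 fold change of Peyer's patch over spleen B cells for each gene within PBS-, sOVA-, and OVA NP–treated mice (3 libraries against 3); bars are standard errors and filled points were called by edgeR. *Fosb* and *Fos* show the largest differences with PBS (5.21 and 4.56), and *Ier2* lies below 0 with sOVA (-0.41).

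Relatives and neighbors of the 10 genes in the pathway were counted from lists. As background, 4908 of the 17170 genes tested were called higher in Peyer's patches, and 9129 were called in either direction. Of 8 other AP-1 genes tested, 7 were higher in Peyer's patches, led by *Atf3* (log2 fold change 5.27), *Maff* (3.87), *Fosl2* (3.66), and *Batf3* (2.22). The NR4A relatives *Nr4a2* (4.72) and *Nr4a3* (3.44) were also higher. Of 26 other primary response genes, 17 were higher, led by the cell cycle inhibitor *Cdkn1a* (3.81), the kinase *Plk2* (3.34), *Ier5l* (2.99), and the phosphatase subunit *Ppp1r15a* (2.35), and 3 were lower. Of 10 MAP kinase phosphatases and feedback inhibitors, which are themselves induced by the pathway they restrain, 7 were higher and 2 lower, led by *Dusp5* (2.57) and *Dusp4* (2.27). Of 15 genes for the kinases and GTPases of the cascade itself, 2 were higher and 3 lower, and *Sos1* (-0.46) differed most. Among 9 genes for SRF, ternary complex, MRTF, and CREB regulators, *Crem* (1.02) was higher and *Elk4* (-0.37) and *Mrtfa* (-0.30) were lower.

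Other lists were counted beside these genes, against the same background. Of 14 heat shock genes, 5 were higher in Peyer's patches and 0 lower, where 28.6% of all genes were higher, so as a list they were near the background. The inducible HSP70 gene *Hspa1a* rose from 0.385 to 2.65 CPM over the spleen libraries to 196 to 936 CPM. *Hspa1a* and *Hspa1b* are near-identical copies, so the split of reads between them is uncertain. All 8 epithelial markers were higher (median log2 fold change 10.99), as were 9 of 10 T cell, 7 of 8 stromal and endothelial, and 10 of 10 germinal center B cell markers, while 7 of 8 B cell markers were lower. The part of these cells, of the digestion, or of the mitochondrial share in the tissue difference was not tested.

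The next comparison asks how treatment changed the genes within Peyer's patches. With sOVA, 9 of the 10 genes were lower than with PBS, against 13.9% of the 15792 genes tested, and 0 were higher (background 13.5%). Their median log2 fold change was -1.43, and that of all genes was -0.02. The largest difference was that of *Nr4a1*, whose 3 sOVA libraries (102 to 233 CPM) were all below the 3 PBS libraries (565 to 1207 CPM), giving a log2 fold change of -2.41 (SE 0.53, edgeR adjusted p = 0.034). The groups did not overlap for the same 9 genes, as for 23% of all genes in that direction.

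The 3 EGR genes fell with sOVA, and the log2 fold changes were -1.67 (SE 0.32) for *Egr3*, -1.49 (SE 0.26) for *Egr2*, and -1.17 (SE 0.21) for *Egr1*. *Egr3* went from 186, 323, and 198 CPM with PBS to 101, 57.9, and 65.3 CPM with sOVA, which placed 2 of the 3 sOVA libraries below every spleen library. *Ier2* went from 139, 208, and 164 CPM to 71.9, 63.5, and 54.7 CPM and had the smallest adjusted p of the 10 genes (log2 fold change -1.44, SE 0.16, edgeR adjusted p = 8.03e-04). *Junb* went from 621, 1065, and 813 CPM to 365, 320, and 255 CPM (-1.42, SE 0.23). The log2 fold changes of *Fosb*, *Fos*, and *Jund* were -1.95 (SE 0.46), -1.0 (SE 0.25), and -0.59 (SE 0.16). *Jun* was the exception, at 408, 561, and 677 CPM with PBS and 403, 472, and 346 CPM with sOVA (-0.44, SE 0.21, edgeR adjusted p = 0.185), and its groups overlapped.

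**Figure D3:**
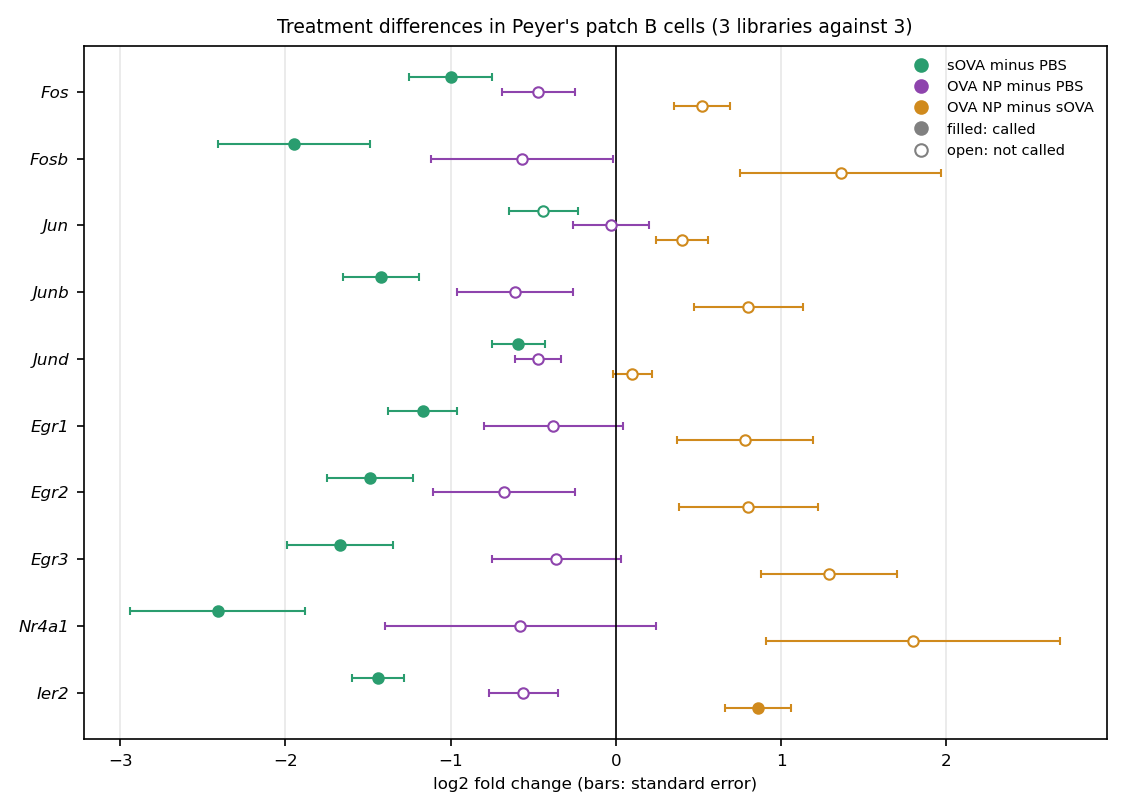
Log2 fold changes between treatments in Peyer's patch B cells for each gene (3 libraries against 3); bars are standard errors and filled points were called by edgeR. The sOVA minus PBS points (green) are all negative and 9 are filled, the OVA NP minus PBS points (purple) are all open, and *Ier2* is the filled point of OVA NP minus sOVA (0.86).

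How many of the 9 calls were kept depended on the libraries. Leaving out sOVA replicate 2, sOVA replicate 3, PBS replicate 2, or PBS replicate 3 left 3, 4, 5, and 5 genes called, respectively. Over the 12 other fits tried, *Egr1*, *Junb*, and *Ier2* were called in all 12, and *Fos* and *Nr4a1* in 5. All 10 log2 fold changes were negative in each of these fits.

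Genes of the same pathway were counted for this comparison too. Of 8 other AP-1 genes, 5 were lower with sOVA, led by *Atf3* (log2 fold change -1.88), *Maff* (-1.74), *Fosl2* (-1.57), and *Mafk* (-1.22), and 0 were higher. Of 26 other primary response genes, 15 were lower and 2 higher, and the lower ones were led by *Plk2* (-2.78), the quiescence factor *Klf2* (-1.86), *Sik1* (-1.84), and *Per1* (-1.42). Of 10 MAP kinase phosphatases and inhibitors 6 were lower, *Spry1* (-1.87) and *Spry2* (-1.66) most, and *Spred1* was higher (0.63). Of 15 B cell activation genes 12 were lower and *Cd44* was higher (0.33), and the lower ones included the chemokine receptor *Ccr7* (-2.37), the host gene of miR-155 *Mir155hg* (-1.42), *Cd83* (-1.33), and *Cd69* (-1.33). The cascade genes had 1 higher and 1 lower of 15.

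Germinal center B cell markers moved in the other direction in this comparison. Of 10 tested, 9 were higher with sOVA, and their summed level was 1734 to 2090 CPM with PBS and 3154 to 3238 CPM with sOVA. Heat shock genes were higher for 7 of 14, with sums of 4843 to 5556 CPM and 6383 to 7682 CPM. Of the 8 epithelial markers 0 were called, and their sums were 217 to 752 CPM and 280 to 1149 CPM. Stromal and endothelial markers were lower with sOVA for 3 of 8 (*Dcn*, *Pdgfra*, and *Pecam1*) and higher for 0, with a median log2 fold change of -1.45. Their sums were 212 to 293 CPM and 104 to 121 CPM. Most of each sum was *Pecam1*, at 160 to 182 CPM with PBS and 74.8 to 101 CPM with sOVA. In spleen *Pecam1* was at 161 to 243 CPM as well, so the sums do not stand for stromal cells alone. B cell markers were lower for 3 of 8 (*Cd22*, *Cd79a*, and *Blk*, median -0.20). The T cell, myeloid, dendritic, and NK cell lists each had 1 gene lower and 0 higher. The mitochondrial share was 5.41% to 7.67% with PBS and 4.97% to 6.02% with sOVA. The part of any of these in the lower immediate-early levels was not tested.

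With OVA NPs, 0 of the 10 genes were called against PBS in Peyer's patches, and 0 of 15798 genes were called in all. At an unadjusted p under 0.05 the counts were 2 of the 10 and 1573 of all genes, and DESeq2 called 0 of the 10 and 149 in all. All 10 log2 fold changes were negative, from -0.03 for *Jun* to -0.68 for *Egr2*, with a median of -0.52. *Nr4a1*, at -0.58 with an SE of 0.82, had the widest error of the 10. *Jund* (-0.47, SE 0.14) and *Ier2* (-0.56, SE 0.21) were the genes under the unadjusted threshold, with edgeR adjusted p of 0.375 and 0.471. The mitochondrial share was 9.08% to 9.80% of counts in the 3 OVA NP libraries and 5.41% to 7.67% in the 3 PBS libraries, without overlap, and its part in the lower values was not tested.

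Compared with sOVA, all 10 log2 fold changes of OVA NPs were positive, and 1 gene was called, *Ier2* (0.86, SE 0.20, edgeR adjusted p = 0.0187). The background was 13.8% called higher of 15599 genes. *Nr4a1* was 1.80 higher with an SE of 0.89, *Fosb* 1.36 with an SE of 0.61, and *Egr3* 1.29 with an SE of 0.41, none of them called. Without OVA NP replicate 1 the calls rose to 6, which were *Egr1* (1.05), *Egr2* (1.07), *Egr3* (1.52), *Junb* (1.00), *Ier2* (0.98), and *Nr4a1* (2.24). Without OVA NP replicate 2 or 3, or sOVA replicate 2 or 3, 0 were called. Leaving out 1 library gave 3581 to 4503 calls over all genes, and the main fit gave 4697. The sOVA and OVA NP comparisons with PBS share the 3 PBS libraries, and those with sOVA share the 3 sOVA libraries.

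Markers of other cells differed between OVA NPs and sOVA as well. As background, 2159 of 15599 genes were called higher with OVA NPs, and 4697 were called in either direction. T cell markers were higher with OVA NPs for 8 of 10 (median log2 fold change 1.48), and *Lck* was lower (-0.47). Dendritic cell markers were higher for 6 of 8 and lower for 1, with sums of 74.5 to 81.9 CPM against 51.7 to 53.4 CPM, and myeloid markers were higher for 3 of 6. Germinal center B cell markers were lower for 8 of 10, with sums of 1305 to 2048 CPM against 3154 to 3238 CPM. The mitochondrial share was 9.08% to 9.80% with OVA NPs and 4.97% to 6.02% with sOVA, without overlap. The part of these in the higher immediate-early values was not tested.

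In the OVA NP group of Peyer's patches, replicate 1 stood apart from the other libraries. Replicate 1 was the lowest of the 3 libraries for 9 of the 10 genes, and it was the lowest for 53.2% of genes at 5 CPM or more. *Nr4a1* was 7.34-fold lower there than in the nearer of the other libraries, *Fosb* 2.98-fold, *Egr1* 2.53-fold, *Egr2* 2.44-fold, and *Egr3* 2.17-fold. *Jun* went the other way, at 643 CPM in replicate 1 and 475 and 477 CPM in the other libraries. The relatives *Nr4a2* (1.06, 43.7, and 37.0 CPM) and *Fosl2* (11.4, 106, and 82.9 CPM) were low in replicate 1 as well. *Hspa1a* was at 936 CPM in it and at 216 and 343 CPM in the others, the epithelial sum was 1061 CPM against 536 and 656 CPM, and the germinal center sum 1305 CPM against 2048 and 1990 CPM. Its mitochondrial share, 9.29%, lay between the other values (9.80% and 9.08%), and its total of 21239188 counts was near theirs.

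The other Peyer's patch groups had ordered libraries too. With PBS, replicate 1 was lowest for 9 of the 10 genes (25.6% of genes at 5 CPM or more) and replicate 2 highest for 8 (47% of such genes). With sOVA, replicate 3 was lowest for 8 (35% of such genes) and replicate 1 highest for 7 (44.9%). In each of the 3 groups the library that was highest for most of the 10 genes had the lowest epithelial sum, at 217, 280, and 536 CPM. Its part in the levels was not tested. PBS replicate 2, the library with the highest *Nr4a1*, carries number 19 among the libraries, away from numbers 10 and 12 of its group, and had the lowest total.

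**Figure D4:**
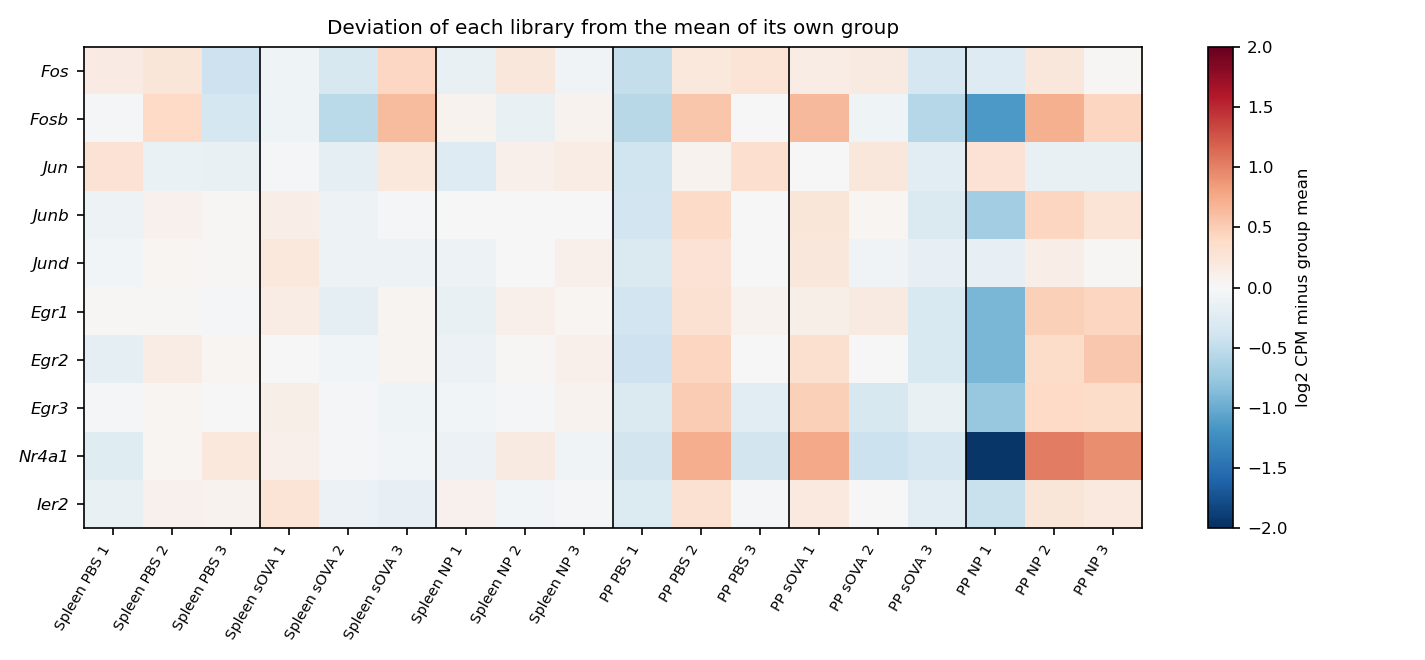
Log2 CPM of each gene in each library minus the mean of its own group (color scale from -2 to 2). The column of OVA NP Peyer's patch (PP NP) replicate 1 is blue for 9 genes and red for *Jun*, and the spleen columns are pale.

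The replicates of a group lay farther apart in Peyer's patches than in spleen for all 10 genes, by little for *Fos*. In spleen the within-group SD of log2 CPM had a median of 0.148 over the 10 genes, and 0.157 over all 17170 genes. In Peyer's patches the medians were 0.480 and 0.210. The 17170 genes include genes of low count, whose counting error is larger. In spleen, the median ratio of highest to lowest library was 1.22 with PBS, 1.27 with sOVA, and 1.17 with OVA NPs over the 10 genes. Over all genes at 5 CPM or more these ratios were 1.1, 1.15, and 1.13. *Nr4a1* had an SD of 0.170 in spleen and 1.11 in Peyer's patches, the latter at percentile 97.3 of all genes, and *Egr3* 0.0714 and 0.517. The median percentile of the 10 genes in Peyer's patches was 72.7, and the lowest was 51.7, for *Jund*. *Fos* had 0.318 and 0.321. No test of the difference in spread was made.

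**Figure D5:**
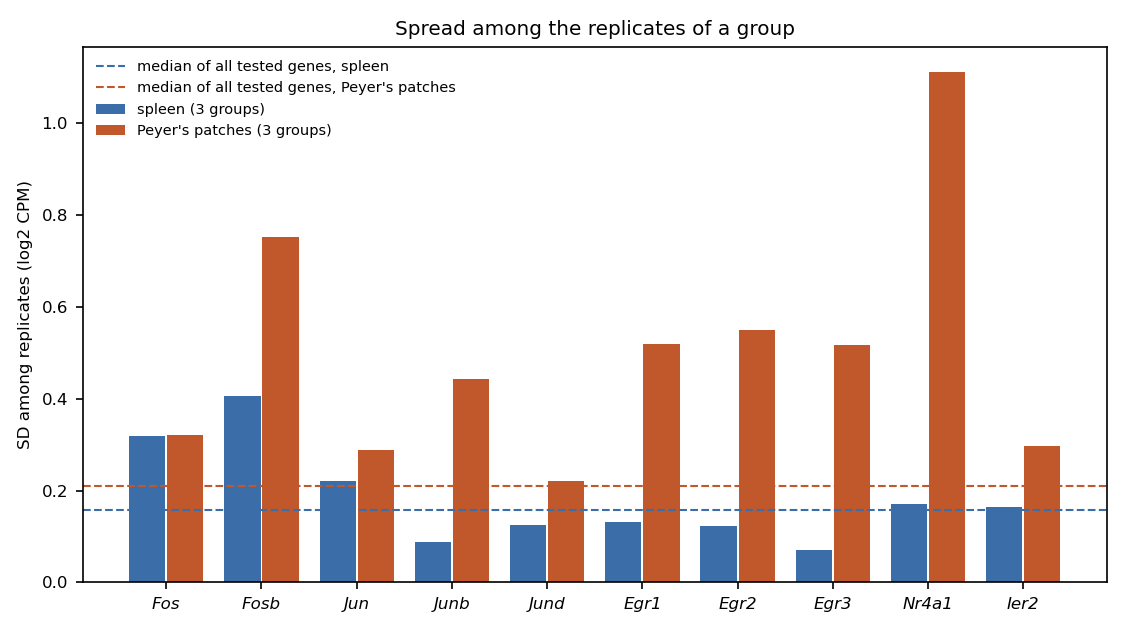
Pooled within-group standard deviation of log2 CPM for each gene in the 3 spleen groups (blue) and the 3 Peyer's patch groups (orange); dashed lines are the medians over all 17170 tested genes (0.157 and 0.210). *Nr4a1* and *Fosb* stand highest in Peyer's patches (1.11 and 0.752).

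The fold range between replicates varied by group. With OVA NPs in Peyer's patches, the highest library was more than 2-fold above the lowest for 6 of the 10 genes, and for 2.88% of the 10516 genes at 5 CPM or more. With OVA NPs in spleen this was the case for 0 of the 10 (1.77% of genes at 5 CPM or more), and the highest ratio was 1.32, for *Jun*. The other Peyer's patch groups lay closer together, at 2 of 10 genes with PBS and with sOVA (4.16% and 5.02% of such genes). In spleen, PBS and sOVA had 0 and 1 of 10 (1.75% and 1.09%). At such shares, 0 of 10 is near the background. For *Fos* with sOVA the ratio was lower in Peyer's patches (1.41) than in spleen (1.66). The edgeR dispersion (biological coefficient of variation) of the 10 genes was a median of 2.39 times the trend for genes of their abundance, and 0.838 times over all genes. *Nr4a1* had the largest ratio, 5.60, and *Jund* the smallest, 1.34.

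The genes deviated together. Over the 9 Peyer's patch libraries, with group means removed, the 45 pairs of genes had a median Pearson r of 0.84, and 38 were positive. *Junb* and *Ier2* were closest (r = 0.99), and *Jun* and *Nr4a1* farthest apart (r = -0.42). The pairs of *Jun* had a median of -0.10, in contrast to 0.75 to 0.95 for each other gene. In the 9 spleen libraries the median was 0.35, with 32 positive pairs. These are descriptions over libraries that share normalization, and 1 library (OVA NP replicate 1) lies farthest out in most pairs.

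Genes outside the list that followed the mean of the 10 over the 18 libraries, with group means removed, were ranked among 9984 genes at 5 CPM or more. The 8 closest were *Wbp11* (r = 0.96, Spearman rho = 0.85), *Mafk* (0.95, 0.86), *Ccr7* (0.95, 0.82), *Btg2* (0.95, 0.92), *Plk2* (0.94, 0.87), *Vamp2* (0.94, 0.92), *Zfp36l1* (0.93, 0.91), and *Rgs2* (0.93, 0.81). Without the 2 libraries farthest from the median, r was between 0.88 and 0.92. No p is given, since the genes were chosen for this likeness. In *Ccr7*, for example, the 3 OVA NP Peyer's patch libraries were at 59.4, 207, and 207 CPM, the order seen for *Nr4a1*. *Wbp11*, which encodes a splicing-associated protein, ran over a narrow range, from 66.5 to 111 CPM in Peyer's patches and from 88.4 to 93.7 CPM in spleen.

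In spleen the differences between treatments were small. With OVA NPs, 5 of the 10 genes were called against PBS, where 15% of 14200 genes were (8.6% higher and 6.35% lower). *Fosb* (0.80, SE 0.19, edgeR adjusted p = 0.00756) and *Fos* (0.73, SE 0.17, edgeR adjusted p = 0.0108) were higher. *Egr3* (-0.34, SE 0.05), *Egr1* (-0.34, SE 0.06), and *Ier2* (-0.36, SE 0.07) were lower. *Junb* (-0.18, SE 0.06) had an edgeR adjusted p of 0.0333 but lay under the fold cutoff. The groups of each of the 5 called genes did not overlap, which was the case for 37.2% of all genes. In a fit to all 18 libraries, in which the spread of the Peyer's patch groups enters, 0 of the 10 were called.

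With sOVA in spleen 3 genes were called, against 17.2% of 14128 genes (10.5% higher and 6.72% lower). *Fos* (0.75, SE 0.22, edgeR adjusted p = 0.0437) and *Egr2* (0.39, SE 0.11, edgeR adjusted p = 0.0201) were higher and *Egr3* (-0.34, SE 0.06, edgeR adjusted p = 0.0015) was lower. *Fosb* was at 0.86 (SE 0.29, edgeR adjusted p = 0.0692). Without sOVA replicate 3, which had the highest *Fos* (24.4 CPM) and *Fosb* (12.3 CPM), 1 gene was called, and without sOVA replicate 2, 5 were. The count was 6 with DESeq2, which called 2393 genes in all. The main fit called 2428 genes in all, and leaving out 1 library gave 1754 to 2472. OVA NPs and sOVA differed in 0 of the 10 genes (33 of 13840 genes, 0.238%), with 1 at an unadjusted p under 0.05 and log2 fold changes between -0.22 and 0.16.

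Among the related lists in spleen, 11 of 13 heat shock genes were higher with OVA NPs than with PBS, led by *Hspa1a* (1.99), *Hspa1b* (1.82), *Hsph1* (1.20), and *Hspa8* (0.92). Of 26 other primary response genes 3 were higher and 6 lower, against 8.6% and 6.35% of all genes, with *Klf2* at -0.49 and *Plk3* at 0.52. Of 15 B cell activation genes 2 were higher and 6 lower, and *Cd83* was higher by 0.96. Germinal center B cell markers were higher for 8 of 10, with sums of 132 to 225 CPM with PBS and 474 to 521 CPM with OVA NPs, and their part in the changes was not tested. With sOVA, germinal center markers were higher for 10 of 10 (median log2 fold change 3.00), with sums of 504 to 763 CPM. Heat shock genes were higher for 7 of 13, myeloid markers lower for 2 of 8, and dendritic cell markers lower for 2 of 7 and higher for 1. Their part in the sOVA differences was not tested either.

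The difference between tissues in the response to sOVA was tested as an interaction. Of the 10 genes 6 were called, all more negative in Peyer's patches, against 5.07% of 16541 genes in that direction. They were *Fosb* (-2.80, SE 0.65), *Egr2* (-1.88, SE 0.29), *Fos* (-1.75, SE 0.39), *Junb* (-1.40, SE 0.25), *Ier2* (-1.20, SE 0.23), and *Egr1* (-1.0, SE 0.24), with edgeR adjusted p between 0.00256 and 0.0388. *Nr4a1* had a larger term than most (-2.11, SE 0.57) but an edgeR adjusted p of 0.0665. With 1 library left out at a time, the number called was 3 without spleen PBS replicate 1, 2, or 3, spleen sOVA replicate 1 or 3, Peyer's patch PBS replicate 3, or Peyer's patch sOVA replicate 3. It was 4 without Peyer's patch sOVA replicate 2. It was 9 without Peyer's patch PBS replicate 1 or Peyer's patch sOVA replicate 1. Over the 17 other fits tried, *Egr2*, *Junb*, and *Ier2* were called in all 17 and *Fosb* in 5. All 10 terms were negative. For OVA NPs 0 of the 10 interaction terms were called (734 of 16619 genes, 4.42%), 2 were under an unadjusted p of 0.05, and DESeq2 called 1. *Fos* (-1.19, SE 0.34, edgeR adjusted p = 0.0873) came closest.

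The order of the group means was alike for most of the genes. PBS Peyer's patches had the highest mean for all 10 genes and OVA NP Peyer's patches the next. The sOVA Peyer's patch group came next for 8 genes and last, below the 3 spleen groups, for *Egr3* and *Ier2*. Neighbors in this order often did not differ beyond their spread, since PBS and OVA NP Peyer's patch libraries overlapped for 8 of the 10 genes, all but *Jund* and *Ier2*, while 17.3% of all genes did not overlap. Levels of *Fos* were 260 ± 67.9 CPM with PBS, 186 ± 30.6 CPM with OVA NPs, and 131 ± 24.0 CPM with sOVA (SD, n = 3), those of *Nr4a1* 780 ± 370, 520 ± 367, and 148 ± 73.8 CPM.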

How the data were processed

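The authors trimmed reads with Cutadapt 2.3, aligned them to GRCm38 with STAR 2.7.8a, and estimated counts per gene with RSEM 1.3.3 (tool names and versions are from the submitters' processing notes and the study's methods). What was deposited is the table of expected counts, not normalized, for 18 libraries with 3 per group (totals of 14177253 to 30052297). Values were rounded to whole numbers before any step, and whether the deposited values were whole was not checked. Each library was assigned to its group and replicate from its label. The labels call the replicates biological but do not say that equal numbers mark the same mouse, and p-values measure the spread between these libraries.

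Differential expression was tested in R 4.3.3 with edgeR 4.0.16 on the libraries of each comparison, with filterByExpr (minimum count 10, minimum total 15), TMM, the robust quasi-likelihood F test, and Benjamini-Hochberg adjustment over all genes tested. The call cutoffs were those of the study, an adjusted p below 0.05 with a log2 fold change of more than 0.25 in size, and interaction terms had no fold cutoff. Tissue was tested over 18 libraries as the mean of the 3 treatments. DESeq2 1.42.0, the authors' tool, was an alternative. CPM were scaled by TMM over all 18 libraries, and levels per kilobase used exon lengths of GENCODE M21 (GRCm38), whose release differs from the authors'. Spread is the pooled within-group SD of log2 CPM (prior count 2), and likeness used log2(CPM + 0.5). The SDs given for a tissue use the libraries of that tissue only. The SD over all 18 libraries has 12 degrees of freedom. The alternatives were other size factors and filters, all 18 libraries in each fit, no fold cutoff, a replicate block, and leaving out each library. The steps were also run on simulated data in which every gene had the same dispersion. The wider spread of the 10 genes was not represented there. The 10 genes and the gene lists were chosen with earlier results of these data known, so their counts are descriptions. From each list, up to 4 called genes with the largest absolute log2 fold change are named. Further values (*Hspa1a*, *Nr4a2*, *Nr4a3*, and *Fosl2* by library, *Lck*, *Spred1*, *Cd44*, and the levels of *Pecam1*) were singled out after they were seen. Up to 8 genes most like the mean of the 10 were taken among those with at least 5 CPM and a symbol other than Gm or Rik.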

Additional observations from a re-analysis of the deposited data

Results flagged for a closer look

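The response to sOVA differed between tissues for 6 of the 10 genes by the interaction test of edgeR, in which a negative term means a lower log2 fold change (sOVA over PBS) in Peyer's patches than in spleen. The terms were -2.80 for *Fosb*, -1.75 for *Fos*, -1.88 for *Egr2*, -1.0 for *Egr1*, -1.40 for *Junb*, and -1.20 for *Ier2*. In spleen the log2 fold changes of these genes were 0.86, 0.75, 0.39, -0.16, -0.02, and -0.23, and in Peyer's patches they were -1.95, -1.0, -1.49, -1.17, -1.42, and -1.44. *Fos* and *Egr2* were called in both tissues, higher in spleen and lower in Peyer's patches. Tissue cannot be told apart from the enzymatic digestion that Peyer's patches received.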

How the results depend on the processing

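The alternatives kept the direction of all 10 tissue differences and of all 10 sOVA effects in Peyer's patches, except that within sOVA-treated mice the tissue difference was -0.35 for *Egr3* and -0.41 for *Ier2*. The median within-group SD of the 10 genes over all 18 libraries was 0.344, and it was 0.245 to 0.359 with 1 library left out. The number of calls moved in several comparisons, and the cause was not tested.

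In counts of the 10 genes called, a fit to all 18 libraries gave 0 for OVA NPs and 0 for sOVA against PBS in spleen, and 5 for OVA NPs against sOVA in Peyer's patches. DESeq2 gave 6 for sOVA in spleen, 4 for OVA NPs against sOVA in Peyer's patches, and 1 for the OVA NP interaction. Without a count filter there were 6 for sOVA in spleen, 0 for OVA NPs against sOVA in Peyer's patches, and 3 for the sOVA interaction. Leaving out 1 library gave 1 to 5 for sOVA in spleen, 3 to 9 for sOVA and 0 to 6 for OVA NPs against sOVA in Peyer's patches, 3 to 9 for the sOVA interaction, and 0 to 2 for the OVA NP interaction, the last of them without Peyer's patch PBS replicate 1.

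In 0 of 15 pairs of groups did all 3 same-numbered pairs of libraries correlate above 0.1. In 0 did every library correlate best with its own number. Only spleen and Peyer's patches of the same treatment could share mice, and there the correlations ran from -0.065 to 0.101. With 3 libraries per group, these values cannot show whether equal numbers mark the same mouse. With the replicate block, 4 of the 10 genes were called for sOVA against PBS and 0 for OVA NPs against sOVA in Peyer's patches, and 3 for the sOVA interaction, and over all genes 3119 were called for OVA NPs against sOVA and 429 for the OVA NP interaction.

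Over all genes, DESeq2 called 113 for OVA NPs against sOVA in spleen, 149 for OVA NPs against PBS in Peyer's patches, and 1290 and 1816 for the OVA NP and sOVA interactions. Without a filter the spleen and Peyer's patch counts were 230 and 146, and with all 18 libraries 14 and 24. The tissue count was 5816 with at least 10 counts in every library and 5735 in OVA NP–treated mice only. Leaving out 1 library gave 0 to 40 for OVA NPs against sOVA in spleen, 0 to 8 for OVA NPs against PBS in Peyer's patches, and 291 to 945 and 655 to 1279 for the OVA NP and sOVA interactions.

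Apart from the tissue differences above, the values that changed sign were not called before or after, and the ranges below run over the libraries left out. Leaving out 1 library gave -0.08 to 0.03 for *Junb* and -0.01 to 0.15 for *Jund* with sOVA in spleen. It gave -0.16 to 0.23 for *Fos*, -0.27 to 0.33 for *Fosb*, -0.09 to 0.12 for *Jun*, -0.03 to 0.05 for *Egr3*, and -0.20 to 0.01 for *Ier2* with OVA NPs against sOVA in spleen. In Peyer's patches it gave -0.21 to 0.16 for *Jun* against PBS and -0.01 to 0.24 for *Jund* against sOVA. For the OVA NP interaction it gave -0.20 to 0.32 for *Egr1*, -0.16 to 0.29 for *Egr3*, -0.78 to 0.07 for *Nr4a1*, and -0.31 to 0.01 for *Ier2*. *Egr3* was also at 0.00 without a filter and with all 18 libraries for OVA NPs against sOVA in spleen, and in the OVA NP interaction *Egr3* was at 0.00 with DESeq2, 0.01 with its size factors, and 0.05 without a filter, where *Egr1* was at 0.03.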
